A study of Homo sapiens with 18 samples.

Results

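Histone genes encode the proteins around which DNA is wound: H2A, H2B, H3 and H4 form the core of the nucleosome, and the linker histone H1 binds where DNA enters and leaves it. The 9 genes described here are the H2B genes H2BC12, H2BC5 and H2BC21, the H2A genes H2AC6 and H2AC25, the linker histone genes H1-2 and H1-10, and H3-3A and H3-3B, which encode the replacement histone H3.3. Their members were every probe set of the array annotated to exactly 1 of these genes, which gave 9 probe sets for 8 genes, out of 19065 probe sets for 11963 genes that have a single gene. H2BC5 had 2 probe sets and the other 7 genes had 1 each. H3-3B had none of its own, since 8 probe sets of the array are annotated to H3-3A or H3-3B together with other genes, and these were not used. The genes were chosen with their values on these arrays known, so their levels, differences and counts past a threshold are a description, with no p-value, and support nothing.

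The cells were SH-SY5Y, a human neuroblastoma line that resembles immature noradrenergic neurons. They were exposed to sarin, a nerve agent of the organophosphate class that inhibits acetylcholinesterase, at 5 ppm and sampled at 3, 24 and 48 h, or left untreated and sampled at the same times. Each of these 6 groups had 3 Affymetrix arrays of 22283 probe sets hybridised with labelled cRNA from total RNA, and the labels give 6 flasks per group, so that the spread between arrays may be technical. All groups were the same line, with no second line or animal to set beside it. Of 12 noradrenergic neuroblast genes with a probe set of their own, 11 lay in the upper 60% of probe sets by level, and their summed signal was 114000 to 116000 on the 24 h sarin arrays and 101000 to 113000 on the 24 h control arrays. At 24 h, 2 of the 11 were past limma's threshold upwards (CHGA and GATA3) and 2 downwards (RET and CHGB). The shares of all tested probe sets past it were 3.42% upwards and 3.74% downwards.

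Most core histone genes and H1-2 belong to the replication-dependent class, whose transcripts are made mainly in S phase and end in a stem-loop in place of a poly(A) tail. The array method follows the maker's standard labelling, which primes on poly(A) tails, so it reads those transcripts of this class that carry a tail; some of these genes are known to give such transcripts, for example in cells that leave the cell cycle. H1-10, H3-3A and H3-3B are expressed through the cell cycle and have ordinary polyadenylated mRNAs. Histone coding sequences are alike between paralogs, and probe sets whose names end in _s_at or _x_at may also bind transcripts of other family members. That applies to the probe sets of H2BC5, H2BC21, H2AC6, H1-10 and H3-3A, while those of H2BC12, H2AC25 and H1-2 end in _at.

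The promoters of the H2A and H2B genes are shown because these genes gave the clearest contrast at 24 h: 4 of them were high with sarin and H2BC21 was not. Each sequence is the 250 bases before the annotated transcript start, from RefSeq, build GRCh38.p14, written 5′ to 3′ on the strand of the gene. H2BC12 lies at chr6:27146859-27147108 (minus strand), H2BC5 at chr6:26157871-26158120 (plus), H2AC6 at chr6:26123922-26124171 (plus), H2AC25 at chr1:228457874-228458123 (minus) and H2BC21 at chr1:149886683-149886932 (minus). Where the table held several starts for a gene, the one farthest upstream was taken. Capitals mark every match, on either strand, to the octamer ATTTGCAT, the CCAAT box CCAAT and the TATA box TATAAA, all known elements of histone promoters.
H2BC12: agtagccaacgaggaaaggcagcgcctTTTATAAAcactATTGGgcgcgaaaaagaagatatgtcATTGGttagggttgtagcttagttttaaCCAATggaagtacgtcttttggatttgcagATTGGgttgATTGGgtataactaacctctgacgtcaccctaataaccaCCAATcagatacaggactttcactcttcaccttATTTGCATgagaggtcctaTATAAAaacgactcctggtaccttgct
H2BC5: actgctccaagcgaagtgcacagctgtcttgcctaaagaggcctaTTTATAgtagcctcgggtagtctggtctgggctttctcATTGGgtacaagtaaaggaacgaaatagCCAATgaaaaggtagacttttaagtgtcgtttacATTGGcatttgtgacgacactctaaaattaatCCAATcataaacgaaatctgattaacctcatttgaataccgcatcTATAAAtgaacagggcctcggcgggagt
H2AC6: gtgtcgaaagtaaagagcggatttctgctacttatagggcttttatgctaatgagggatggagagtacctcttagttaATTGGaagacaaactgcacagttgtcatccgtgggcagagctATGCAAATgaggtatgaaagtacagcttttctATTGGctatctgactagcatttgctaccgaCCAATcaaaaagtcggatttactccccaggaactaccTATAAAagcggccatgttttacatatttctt
H2AC25: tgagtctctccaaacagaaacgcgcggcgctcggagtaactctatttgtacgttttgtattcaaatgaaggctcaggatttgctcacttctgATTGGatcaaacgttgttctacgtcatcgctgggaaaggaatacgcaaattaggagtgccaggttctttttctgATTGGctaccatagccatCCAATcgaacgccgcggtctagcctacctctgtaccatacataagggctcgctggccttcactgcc
H2BC21: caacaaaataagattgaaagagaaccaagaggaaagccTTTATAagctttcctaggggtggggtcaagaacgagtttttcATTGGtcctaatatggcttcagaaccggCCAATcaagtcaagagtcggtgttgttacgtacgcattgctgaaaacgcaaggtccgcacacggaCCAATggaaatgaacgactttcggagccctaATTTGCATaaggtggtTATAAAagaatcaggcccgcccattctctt

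The octamer was found in 3 of the 8 measured genes, H2BC12, H2BC21 and H2AC6, and in 1.63% of 35116 promoter entries of the same length. In both H2BC12 and H2BC21 it ran from base -46 to base -39 before the start. A CCAAT box was present in 7 of the 8 genes and in 32% of all promoter entries, with 6 copies in H2BC12, 4 in H2BC5 and 3 each in H2AC6, H2AC25 and H2BC21. A TATA box was present in 5 of the 8, against 10.7% of all entries, and in H2BC12, H2BC5, H2BC21, H2AC6 and H1-10 its last base lay 22 to 26 bases before the start. Farther upstream, H2BC5 and H2BC21 each held 1 more match on the opposite strand, and H2BC12 an overlapping pair of matches on opposite strands. H2AC25 and H1-2 had no TATAAA in this window and H3-3A had only 1 CCAAT box. These are matches of letters, and the H2B gene without a difference at 24 h held the same 3 motifs as H2BC12.

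**Figure D1:**
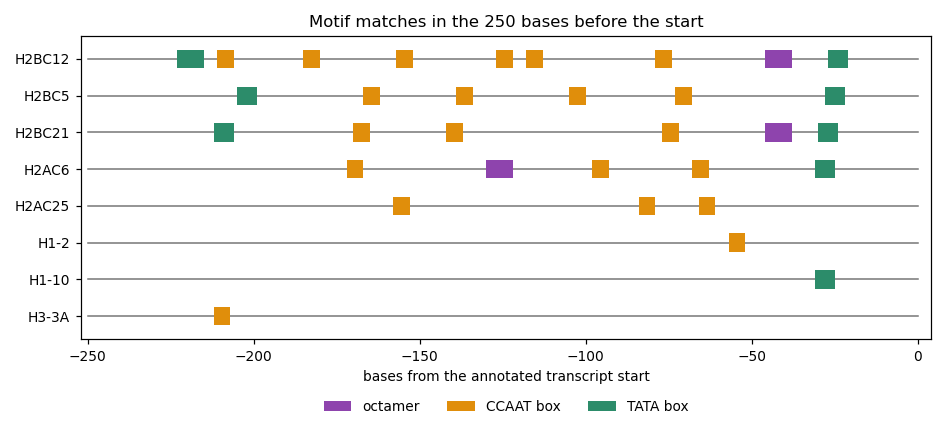
Positions of the 3 motifs in the 250 bases before the transcript start of the 8 measured histone genes, in bases from the start (x axis), with 1 line per gene and 1 box per match on either strand. The octamer sits at the same place, from -46 to -39, in H2BC12 and H2BC21.

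Among the measurements of the whole series, the 3 arrays of sarin at 48 h stood apart. Their GAPDH 3′ over 5′ signal ratio, which rises as RNA is degraded, was 2.15 to 2.3 and that of the other 15 arrays 0.696 to 1.17. The signal of the Alu control probe set was 194000 to 214000 on them and 22700 to 103000 on the others. The 90th percentile of 27 bacterial control probe sets that match no human transcript, used here as a background level, was 410.7 to 443.2 on them and at most 182.9 on the others. They correlated with the other arrays at r of 0.65 to 0.746 across probe sets, while r among the other 15 was 0.906 to 0.965. No result at 48 h can be given without these arrays. On the 24 h arrays this ratio ran from 1.05 to 1.17 for sarin and from 0.811 to 0.941 for control, and the median signal 315 to 345 with sarin and 397 to 414 without.

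At 24 h, 4 of the 5 H2A and H2B genes were higher in sarin-exposed cells, by 1.8-fold to 3.3-fold on the scale of log2(signal + 16), and the replacement histone gene H3-3A was 2.03-fold lower. H2BC12, an H2B gene of the large cluster on chromosome 6, had the widest difference. Its signal was 6047.3, 5142.6 and 5106.3 on the sarin arrays and 1117.1, 2130.5 and 1817.5 on the control arrays. The lowest sarin array was above the highest of all 9 control arrays of the series, which was 2271.5 at 3 h. The share of all tested probe sets with sarin at 24 h above all 9 controls was not counted, here or for the genes below. The difference at 24 h for H2BC12 was 1.72 ± 0.20 (SE, n = 3), higher than that of 99.9% of the tested probe sets.

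H2BC5, a second H2B gene of the same cluster, was read by 2 probe sets that share the gene and may share transcripts. The brighter one gave 2303.1, 2442.2 and 2292.8 on the sarin arrays at 24 h and 1025, 1135.5 and 1270.8 on the control arrays. The dimmer one gave 1454.1, 1036.3 and 1122 with sarin and 574.8, 384 and 377.9 without. In both, every sarin array lay above all 9 controls, and the differences were 1.03 ± 0.16 and 1.41 ± 0.34.

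H2AC6, an H2A gene, lies close to H2BC5: in the RefSeq gene table only H1-4 stands between them among protein-coding genes. Its signal was 1048.8, 1178.6 and 1302.5 with sarin and 461.4, 571 and 530 without, a difference of 1.15 ± 0.29. H2AC25, an H2A gene of a small cluster on chromosome 1, gave 2452.6, 2131.9 and 2401.5 with sarin and 1085.5, 1337.5 and 1460.8 without, a difference of 0.85 ± 0.24. For both genes the sarin arrays at 24 h were above all 9 control arrays, whose highest values were 720.8 for H2AC6 and 1811.2 for H2AC25.

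H2BC21, an H2B gene of another chromosome 1 cluster, did not share this difference at 24 h. It gave 633, 582.1 and 654.2 with sarin and 704.2, 622.8 and 614.7 without, so that the groups overlapped, with a difference of -0.05 ± 0.24. The linker histone gene H1-10 was also level, at 5177.3, 5093.5 and 5223 with sarin and 5126.3, 5214.1 and 5781.2 without (-0.06 ± 0.14). H1-2, the replication-dependent linker histone gene, was dim and variable, at 387.8, 394.1 and 557.1 with sarin and 209.4, 338.9 and 419 without, and its difference of 0.48 ± 0.35 came with overlapping arrays.

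H3-3A differed in the other direction. Its signal at 24 h was 507.2, 792.3 and 850.4 with sarin and 1392.4, 1542.8 and 1370.7 without, a difference of -1.02 ± 0.24. The groups did not overlap, but the controls themselves varied with time: the 3 h controls gave 476, 841.1 and 922.1 and the 48 h controls 869.9, 1326.5 and 1474.8. The 24 h sarin arrays thus lay within the range of the 3 h controls and below the 48 h controls.

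**Figure D2:**
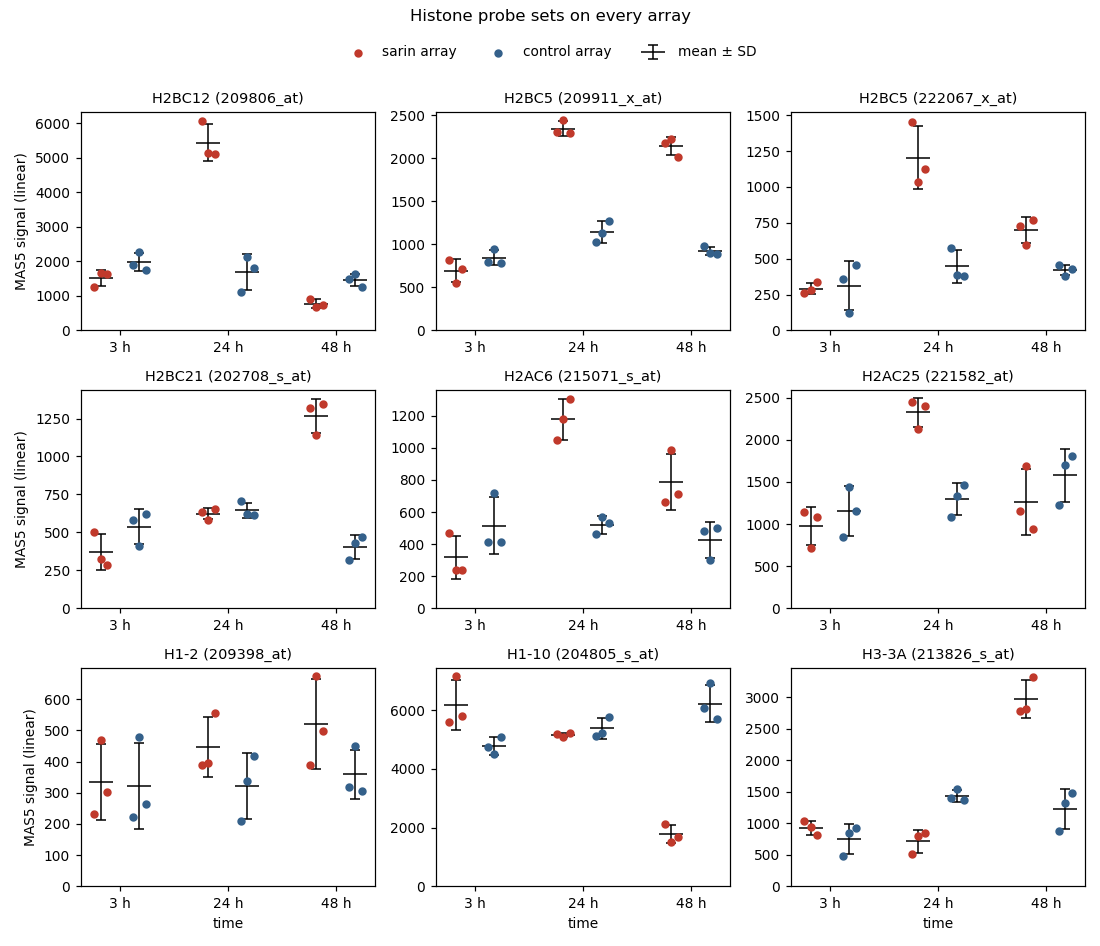
MAS5 signal on a linear scale (y axis) of the 9 histone probe sets at 3, 24 and 48 h (x axis), with sarin arrays in red to the left of control arrays in blue and black bars for the mean ± SD of 3 arrays. The sarin arrays at 24 h lie above every control array for H2BC12, both probe sets of H2BC5, H2AC6 and H2AC25, and not for H2BC21, H1-2, H1-10 or H3-3A.

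Of the 9 probe sets, all of which passed the level filter, 5 were past the threshold upwards at 24 h in limma's moderated test, adjusted over 11439 probe sets, and 1 downwards. Over all tested probe sets the shares were 3.42% upwards and 3.74% downwards, and in either direction 7.16%. Arrays did not overlap in 5 of the 9 upwards and 1 downwards, and in 15.6% and 23.3% of all tested probe sets (38.9% together). Nothing is read from the count over the histone probe sets, since they were chosen with these values known. Their median difference was 0.85, and that of all tested probe sets -0.09, with medians from -0.31 to 0.1 from the dimmest to the brightest of 5 bins by level. The calls of H2AC6 and H2AC25 were lost without any 1 of the 6 arrays of that time, that of the dimmer H2BC5 probe set without control replicates 2 or 3 or sarin replicate 1, and that of H3-3A without control replicate 2 or sarin replicate 1. H2BC12 and the brighter H2BC5 probe set were past the threshold in all of these fits. H2AC25 also lost its call with quantile normalization, with no level filter and without a variance trend. With spike-in scaling all these calls but that of H2BC12 were lost. The geometric mean signal of the bacterial hybridisation spike-ins was 1870 to 3980 on the 24 h control arrays and 2360 to 2730 with sarin. The RNA measures moved with the groups at 24 h, and so did markers of substrate-adherent cells, a flat cell form found in neuroblastoma lines. The summed signal of all 18 markers was 60000 to 62400 with sarin and 82000 to 87500 without, and 0 of the 15 tested were higher and 7 lower. In such bulk samples fewer cells of a type and less RNA per cell cannot be told apart. The part of either in the histone differences was not tested.

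**Figure D3:**
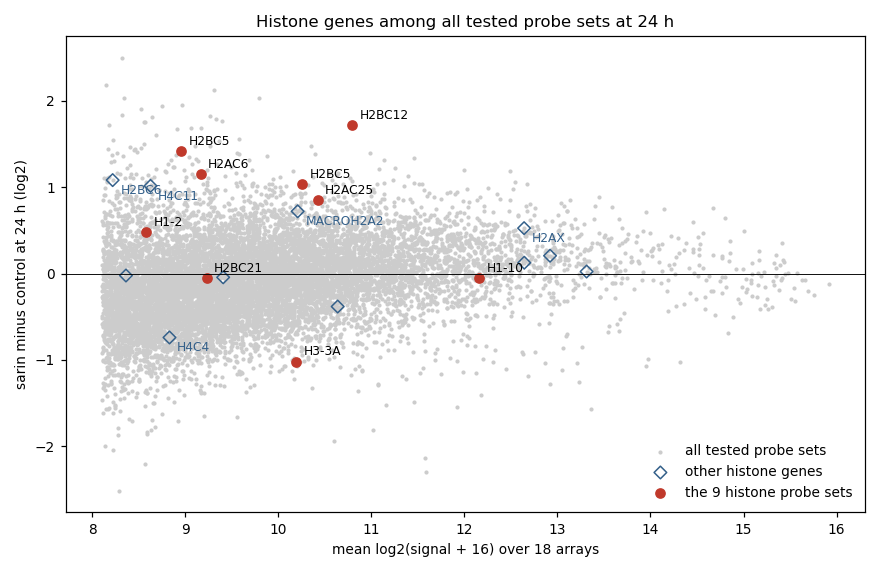
Difference between sarin and control at 24 h on the log2 scale (y axis) against mean level over 18 arrays (x axis) for all 11439 tested probe sets in grey, the 9 histone probe sets in red and the brightest probe set of 11 other histone genes as blue diamonds. H2BC12 is the highest histone point at 1.72 and H3-3A the lowest at -1.02.

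After 3 h the differences of the histone genes went in both directions. None of the 9 probe sets was past the threshold, as was the case for all 11439 tested (0% called by limma, with 1141 at an unadjusted p under 0.05). H1-10 was higher on every sarin array, at 5588.1, 7146.6 and 5799.7, than on any control array of that time, at 4730.8, 4503.6 and 5090.3, with a difference of 0.36 ± 0.14. H2BC12 was lower on every sarin array, at 1242.7, 1665.4 and 1640.5 against 1899.9, 2271.5 and 1757.3 (-0.38 ± 0.20). For the other 7 probe sets the groups overlapped, while 7.86% of all tested probe sets were higher and 6.27% lower without overlap (14.1% together). Their differences ran from -0.70 ± 0.29 in H2AC6 to 0.35 ± 0.24 in H3-3A.

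At 48 h the histone probe sets went in both directions, on sarin arrays that stood apart from the rest. H2BC12 gave 919.6, 668.5 and 742.6 with sarin and 1486.6, 1630.8 and 1270.6 without, a difference of -0.90 ± 0.20, so its lowest group of the 6 was sarin at 48 h and its highest sarin at 24 h. H1-10 gave 2121.2, 1523.7 and 1692.6 with sarin and 6059.1, 6926.2 and 5680.5 without, a difference of -1.81 ± 0.14. Both were lower on every sarin array than on every control array.

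H2BC21, level at 24 h, was higher at 48 h, with 1319.8, 1139.7 and 1345.5 on the sarin arrays and 315.6, 430.5 and 467 on the control arrays (1.63 ± 0.24). Its control mean of 404 was below the background level of the sarin arrays, 410.7 to 443.2, so no fold is given. The part of background in this difference was not tested. H3-3A gave 2783.4, 2818.4 and 3317 with sarin and 869.9, 1326.5 and 1474.8 without, a difference of 1.30 ± 0.24. H2BC5 gave 2179, 2228 and 2020.2 with sarin at its brighter probe set and 980.9, 904.9 and 882.9 without. These 3 genes did not overlap between the groups.

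At its dimmer probe set H2BC5 gave 730.7, 595.5 and 767.1 with sarin and 452.8, 381.3 and 431.2 without, again with no overlap. H2AC6 gave 663.6, 986.4 and 710.6 with sarin and 480.6, 298.5 and 498.8 without. The control means of these probe sets, 422 for the dimmer H2BC5 and 426 for H2AC6, lay within the background range of the sarin arrays, 410.7 to 443.2. H2AC25, at 1154.3, 1694.8 and 940.5 with sarin and 1224.9, 1696.4 and 1811.2 without, overlapped, as did H1-2, which was above the background level on 2 of 3 sarin arrays. The H2AC6 call was lost with quantile normalization, with median centring and without control replicate 2 or sarin replicate 2. The dimmer H2BC5 probe set was not past the threshold, and was with only the 6 arrays. In all, 4 probe sets were past the threshold upwards and 2 downwards, where 33% of all tested probe sets were past it upwards and 35.6% downwards (68.7% together). With median centring 3 histone probe sets were past it upwards and 3 downwards, and over all tested probe sets 2070 and 5730. With spike-in scaling 0 were past it upwards and 7 downwards, and over all 38 and 9384. Arrays did not overlap in 5 upwards and 2 downwards, and in 34.2% and 34.6% of all tested probe sets (68.8% together).

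The differences at 48 h depended on how the arrays were put on a common scale. When the arrays were scaled to the bacterial hybridisation spike-ins, whose geometric mean signal was 9500 to 12700 on the 48 h sarin arrays and 2190 to 3360 on the 48 h controls, H2BC21 was at -0.43, H3-3A at -0.76, the 2 probe sets of H2BC5 at -0.86 and -1.36, and H2AC6 at -1.18. The directions of H2BC12 and H1-10 were the same under that scaling. The summed signal of the noradrenergic markers at 48 h was 51000 to 60700 with sarin and 96800 to 101000 without. That of the substrate-adherent markers was 44900 to 50200 with sarin and 81900 to 105000 without, and that of 5 glial markers 1640 to 2420 with sarin and 717 to 1150 without. Only 2 of these glial markers passed the level filter. The background level of a single probe set was 410.7 to 443.2 on these sarin arrays and 103.1 to 161.1 on the controls, so the glial sum is not read as a rise. Single substrate-adherent markers went both ways at 48 h: of 15 tested, 6 were past limma's threshold upwards and 5 downwards, with a median difference of 0.11. Among the 5, VIM had a mean of 7140 on sarin arrays against 31000 on controls, and LGALS1 4880 against 24600. No marker of any of these lists had a signal of 0, which does not show that each was detected. FN1, for example, was above background on 1 of 3 sarin arrays. The part of all these markers in the 48 h histone differences was not tested. RNA quality, background and sarin cannot be told apart at 48 h.

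**Figure D4:**
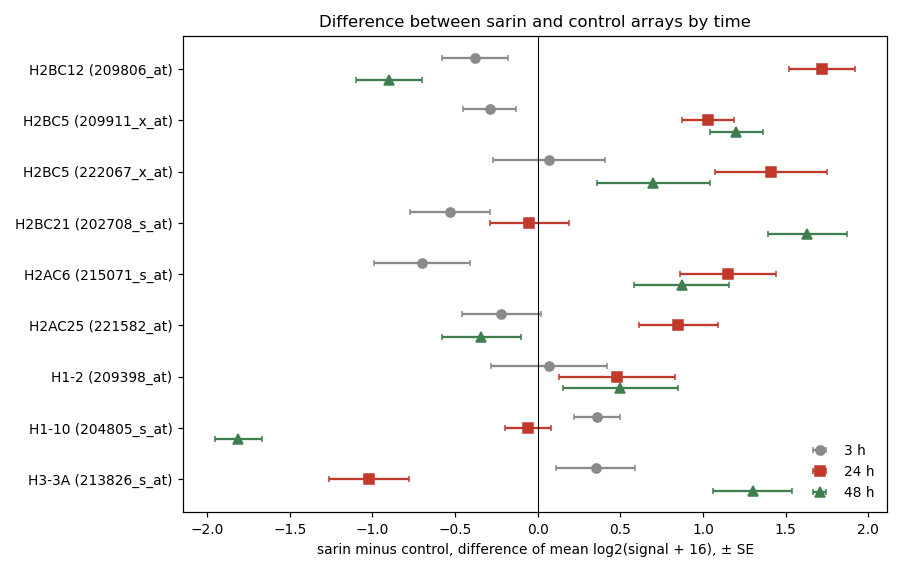
Sarin minus control, as the difference of mean log2(signal + 16) with its SE (x axis), for the 9 histone probe sets (rows) at 3 h (grey circles), 24 h (red squares) and 48 h (green triangles). H2BC12 was at -0.38, 1.72 and -0.90 over the 3 times and H3-3A at 0.35, -1.02 and 1.30.

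The same genes were compared between times in untreated cells. Between 24 h and 3 h, H3-3A was higher by 0.98 ± 0.24 at 24 h, with a mean of 1440 ± 93.7 at 24 h and 746 ± 238 at 3 h (SD, n = 3), and was the 1 probe set past the threshold, where 3.23% of all tested were past it upwards and 2.04% downwards (5.26% together). Arrays did not overlap for 3 of the 9, all higher, and for 16.5% of all tested probe sets upwards and 8.79% downwards (25.3% together). With spike-in scaling H2BC12 passed, as lower, and over all tested probe sets 15 were past the threshold upwards and 3461 downwards. The H3-3A call was lost without control replicate 1 of the 3 h group or any 1 of the 24 h controls. It was also lost with quantile normalization, median centring, spike-in scaling or only the 6 arrays. The brighter H2BC5 probe set was at 0.43 ± 0.16 without overlap, with 1140 ± 123 at 24 h and 844 ± 88.4 at 3 h. Between 48 h and 3 h none of the 9 was past the threshold, as against 0.175% of all tested upwards and 0.149% downwards (0.323% together). With spike-in scaling H2BC21, H2BC12 and H2AC6 passed, as lower, and over all tested probe sets 5 passed upwards and 3511 downwards. Without that scaling the differences ran from -0.43 ± 0.20 in H2BC12 to 0.72 ± 0.24 in H3-3A. Arrays did not overlap for 1 upwards and 1 downwards, and for 10.5% and 6.59% of all tested (17.1% together). These comparisons share the control arrays with those of sarin. Array measures also moved with time in the controls. The 3′ over 5′ ratio of ACTB was 0.79 to 1.14 at 3 h, 1.46 to 1.5 at 24 h and 1.07 to 1.44 at 48 h, while that of GAPDH overlapped. The median signal was 310 to 339, 397 to 414 and 347 to 373 at these times. The part of either in the differences between times was not tested.

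Ordered by mean signal, sarin at 24 h was the highest of the 6 groups for H2BC12, H2BC5 at both probe sets, H2AC6 and H2AC25, without overlap with the next group. The share of all tested probe sets with this order was not counted. Against the controls of 24 h alone, 15.6% of them were higher without overlap. For H2BC5 and H2AC6 sarin at 48 h came next, also without overlap with the group after it, while the control groups of H2AC6 overlapped with each other and with sarin at 3 h. The 3 h controls of H2AC6, at up to 720.8, also overlapped with sarin at 48 h, at 663.6 to 986.4. H2BC21 and H3-3A had sarin at 48 h as their highest group. For H1-2 no neighbouring groups in the order were separated.

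Over the 15 arrays other than those of sarin at 48 h, the 5 probe sets of H2BC12, H2BC5, H2AC6 and H2AC25, grouped after their values were seen, had r of 0.6 to 0.92 between them. H2BC21 correlated with them at 0.35 to 0.58, H1-2 at 0.11 to 0.56, H3-3A at -0.53 to -0.01 and H1-10 at -0.59 to -0.09. Over the 12 arrays left when sarin at 24 h was also taken out, r between the 5 ran from -0.51 to 0.73. The arrays share their scaling, so these values are a description.

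The genes with the profile most like H2AC6, the replication-dependent gene with the widest range of group means when each gene is taken by its brightest probe set (1.9 on the log2 scale over 5 groups), were GTF3C1 (r = 0.9), DDX39A (0.889), FLRT3 (0.881), PCF11 (0.874) and DHX9 (0.872). GTF3C1 encodes a subunit of the RNA polymerase III factor TFIIIC, DDX39A and DHX9 encode RNA helicases, PCF11 a factor of mRNA 3′ end cleavage and FLRT3 a membrane protein of neurons. For H3-3A, with a range of 1.02, they were HMGA2 (0.904), TYRO3 (0.896), WDR48 (0.85), BASP1 (0.847) and ITGB3 (0.842). Pearson's r was taken over the same 15 arrays and 8046 genes, as a description.

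Other histone genes were few on the tested part of the array. Of 80 listed, 41 had a probe set of their own and 11 passed the level filter. At 24 h none of the 11 was past the threshold in limma's test, in which 7.16% of all probe sets were called. In that test 6 of the 11 had an unadjusted p under 0.05, in both directions, as had 2799 of all 11439 probe sets. The median difference of the 11 was 0.12, against -0.09 over all tested probe sets. H2BC6, the next gene after H2BC5 in the cluster, was nearest, at 1.08 ± 0.33 with an adjusted p = 0.0501 in limma, from 718 ± 126 with sarin and 339 ± 109 without. Its probe set ends in _x_at, as do those of H4C11 and H2AC14, and may also bind transcripts of other family members. With all 18 arrays replaced by the 6 of that time, 4 of the 11 were called higher and 1 lower, as were 935 and 1128 of all tested probe sets.

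Among the other replication-dependent genes at 24 h, H4C11, an H4 gene, was at 1.01 ± 0.48 and H4C4, another, at -0.74 ± 0.29. H3C6, an H3 gene, was at -0.04 ± 0.25 and the H2A gene H2AC14 at -0.02 ± 0.32. Among the variants, H2AX, which marks DNA breaks once phosphorylated, was at 0.53 ± 0.20, MACROH2A2, a macroH2A gene, at 0.72 ± 0.30, and CENPA, the histone H3 of centromeres, at -0.38 ± 0.17. MACROH2A1 was at 0.21 ± 0.17, and the 2 H2A.Z genes H2AZ1 and H2AZ2 were at 0.02 ± 0.13 and 0.12 ± 0.15. After 3 h none of the 11 passed, with 2 at an unadjusted p under 0.05 in limma, against 1141 of all 11439 tested probe sets. MACROH2A2 (-0.87 ± 0.30, limma adjusted p = 0.387) and H2AC14 (0.75 ± 0.32, 0.441) came nearest.

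At 48 h, on the arrays that stood apart, 3 of the 11 were past the threshold upwards and 7 downwards, where 33% and 35.6% of all tested probe sets were. The H2A.Z gene H2AZ1 had 4330 ± 321 with sarin and 13200 ± 1110 without (-1.61 ± 0.13, limma adjusted p = 3.82e-09) and H2AZ2 had 2930 ± 405 and 8300 ± 409 (-1.51 ± 0.15, 6.42e-08). Of the 7, H2BC6 and H4C11 were not above background on any sarin array, where the background level of 410.7 to 443.2 was above their mean control signals of 347 and 401, so no fold is given. H4C4, at 1070 ± 34.9 with sarin and 395 ± 55.1 without (1.41 ± 0.29, adjusted p = 0.000268 in limma), was among those higher. Its control mean was also below the background level of the sarin arrays.

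Calls were also counted in a list of genes that act on histone transcripts, with no test of the list as a whole. It holds factors of histone gene transcription, of the cleavage of histone pre-mRNA and of mRNA decay, with 15 tested genes. At 24 h, 3 rose and 0 fell, and the median difference was 0.11 against -0.09 over all tested probe sets, of which 3.42% were called higher and 3.74% lower. They were SRRT, which encodes the cap-binding partner ARS2 (0.72 ± 0.16, limma adjusted p = 0.00996), LSM1, a component of the ring that binds mRNA ends in decay (0.67 ± 0.16, 0.0165), and UPF1, an RNA helicase needed for the decay of histone mRNA (0.61 ± 0.17, 0.0331). SLBP, whose protein binds the stem-loop of replication-dependent histone mRNAs, was at -0.08 ± 0.22 (adjusted p = 0.86 in limma), with 1760 ± 457 on the sarin arrays and 1830 ± 178 on the control arrays. NPAT, the coactivator of histone genes in S phase, was at 0.04 ± 0.25 (adjusted p = 0.936 in limma), and SYMPK, the scaffold of the cleavage complex, at 0.73 ± 0.23 (adjusted p = 0.0543). SRRT no longer passed when control replicate 2 or sarin replicate 2 was left out, LSM1 without control replicate 3 or sarin replicates 1 or 2, and UPF1 without control replicates 2 or 3 or any 1 sarin replicate, with adjusted p-values up to 0.15.

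Of 25 histone chaperone genes, whose products carry histones to and from DNA, 2 rose and 0 fell at 24 h, a share near the 7.16% called over all tested probe sets, with a median of 0.15. They were NCL, which encodes nucleolin (0.73 ± 0.16, limma adjusted p = 0.0105), and NASP, a chaperone of H3, H4 and linker histones (0.41 ± 0.12, 0.0404). Leaving out any 1 of the 6 arrays ended the call of NASP, with an adjusted p of at most 0.146, and NCL no longer passed when control replicate 2 or either of sarin replicates 1 and 2 was left out (up to 0.0613). At 48 h 3 chaperone genes were higher and 14 lower, against 33% and 35.6% of all tested probe sets, with UBN1, a subunit of the H3.3 chaperone HIRA, at 2.13 ± 0.18 (adjusted p = 5.69e-09 in limma) and RBBP7, a histone-binding protein gene, at -1.34 ± 0.13 (5.17e-08).

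S phase and DNA replication genes did not move in 1 direction at 24 h: of 26, 1 rose and 2 fell, where 3.42% of all tested probe sets rose and 3.74% fell, with a median of 0.03. RRM1, a subunit of ribonucleotide reductase, was at 0.48 ± 0.13 (limma adjusted p = 0.0353), while CDK2, a kinase of S phase entry, was at -0.62 ± 0.14 (0.0128) and CDT1, a replication licensing factor, at -0.77 ± 0.22 (0.0437). RRM1 and CDT1 lost their calls without any 1 of the 6 arrays, with adjusted p-values up to 0.129 and 0.2, and CDK2 without control replicate 2 or sarin replicates 1 or 2 (up to 0.0679). With spike-in scaling none of the 8 companion genes called at 24 h passed in limma, at adjusted p-values of 0.304 to 0.655. PCNA, the sliding clamp of replication, had 4640 ± 641 with sarin and 3850 ± 360 without (0.26 ± 0.14, adjusted p = 0.275 in limma). At 48 h, 1 of the 26 was higher and 19 were lower, against the same 33% and 35.6%, with TYMS, the thymidylate synthase gene, at -2.54 ± 0.16 (adjusted p = 1.28e-10 in limma) and MCM2, a helicase subunit, at -2.09 ± 0.14 (2.35e-10). SLBP was at -1.55 ± 0.22 at that time (adjusted p = 4.41e-06 in limma), with 656 ± 78 on the sarin arrays and 1950 ± 96.3 on the control arrays. At 3 h none of the tested genes of these 3 lists passed. An unadjusted p under 0.05 in limma was found for 1 of 15, 3 of 25 and 3 of 26, and for 1141 of all 11439 probe sets. The listed genes were led by SRRT (0.59 ± 0.16, adjusted p = 0.334) and, at -0.39 ± 0.14 and -0.53 ± 0.19, PCNA and the chaperone gene NPM1 (both 0.387).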

How the data were processed

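The authors deposited 1 column per array (18 arrays) holding MAS5 signal intensity, not log-transformed, per the submitters' processing notes. Which MAS5 version, target level or filter they used is not stated there. The trimmed mean signal, taken without the extreme values, was 800.1 to 800.3 on all 18 arrays, so the deposited values share a common mean level. Of 22283 probe sets, 19065 have 1 gene in the platform annotation. RefSeq gene identifiers matched for 19053, and 0 symbols changed.

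Values were analysed as log2(signal + 16), so fold changes understate those of dim probe sets. Probe sets in the upper 60% by mean level (8.106 on that scale, a signal of 259.5) were tested, 11439 in all. A model with 1 mean per group, over all 18 arrays, was run with limma 3.58.1 (R 4.3.3) and a variance trend (12 residual degrees of freedom), two-sided, with Benjamini-Hochberg adjustment and a threshold of 0.05. A companion gene was counted by its brightest tested probe set. On simulated data the fit was checked for false calls and recovery.

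The members and the gene lists were chosen with earlier results of these data known. Named are all members, up to 6 genes of each list past the threshold at 24 h or else up to 2 with the smallest p, up to 2 of each list at 3 and 48 h, and the 5 genes most like 2 members. H2AX, MACROH2A2, CENPA and other histone genes beyond that rule, SLBP, NPAT, SYMPK and PCNA were named after their values were seen. Same-numbered arrays had deviations correlated at -0.17 to 0.02 between sarin and control and at -0.13 to 0.27 between control times, and in no comparison was every pair over 0.1, so the numbers were not taken to pair arrays. The number of arrays limits the precision. The alternatives changed the pseudocount, the filter on level, the scaling, the choice of probe set, the variance model or the arrays used; scaling to spike-ins was chosen after seeing the data.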

Additional observations from a re-analysis of the deposited data

Results flagged for a closer look

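Probe sets for which every sarin array moved one way against its controls at one time and every sarin array the opposite way at another are given here; the difference between times was not tested. H2BC12 was at -0.38 at 3 h, 1.72 at 24 h and -0.90 at 48 h. H3-3A was at -1.02 at 24 h and 1.30 at 48 h. H1-10 was at 0.36 at 3 h and -1.81 at 48 h. Each 48 h value rests on the 3 sarin arrays with a GAPDH 3′ over 5′ ratio of 2.15 to 2.3, against 0.703 to 0.955 on the 48 h controls, and the part of RNA quality in these differences cannot be told apart from that of sarin.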

How the results depend on the processing

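The 5 histone probe sets that were high at 24 h kept that direction under all alternatives run, from 1.45 to 2.01 for H2BC12 and 0.73 to 1.14 for H2AC25, as did H3-3A, from -1.16 to -0.73. Histone probe sets past the threshold at 24 h numbered 6, and 1, H2BC12, when arrays were scaled to spike-ins. Leaving out 1 array gave 2 to 4 at 24 h and 5 to 6 at 48 h. Calls over all probe sets at 24 h, 819, became 430 with quantile normalization (223 higher and 207 lower), 1530 with median centring (1379 and 151), 27 with spike-in scaling, 1379 without the 48 h sarin arrays, 2063 with only the 6 arrays and 229 to 549 without 1 array. At 48 h, 7857 became 12022 with no level filter, 5075 with 1 probe set per gene, and 7152 to 7688 without 1 array. Its split of 3780 higher and 4077 lower became 2070 and 5730 with median centring and 38 and 9384 with spike-in scaling. At 3 h leaving out 1 array gave 0 to 1.

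For control cells at 24 against 3 h, 602 became 247, 1648 (141 higher and 1507 lower), 3476, 1039 and 59 with quantile normalization, median centring, spike-in scaling, no 48 h sarin arrays and only the 6 arrays, and 247 to 747 without 1 array. At 48 against 3 h, 37 became 7, 57, 3516, 65 and 2 in that order, 15 with no level filter, 17 without a variance trend and 4 to 177 without 1 array. Other histone genes called at 24 h, 0, became 1 with pseudocount 64, quantile normalization, no variance trend, the replicate block or no 48 h sarin arrays, 2 with no level filter or median centring, 5 with only the 6 arrays and 0 to 1 without 1 array. At 48 h, 10 became 31 with no level filter, 6 in the upper 40% and 9 to 10 without 1 array. The cause was not tested; fewer or more probe sets were tested where the filter changed.

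Directions turned at 48 h for H1-2 with quantile normalization (-0.04), median centring (-0.06) and spike-in scaling (-1.56), and with spike-in scaling for H2BC21 (-0.43), H2BC5 (-0.86 and -1.36), H3-3A (-0.76) and H2AC6 (-1.18). In controls at 24 against 3 h they turned for H2BC21 (-0.05 with median centring, -0.5 with spike-ins), H1-10 (-0.16 and -0.61), H1-2 (-0.3 and -0.75), H2AC6 (-0.27 and -0.72), H2AC25 (-0.14 and -0.59) and, with spike-ins, H2BC5 (-0.35 and -0.13). At 48 against 3 h they turned for the brighter H2BC5 probe set (-0.04 with median centring, -0.68 with spike-ins) and, with spike-ins, the dimmer one (-0.22), H1-10 (-0.43), H3-3A (-0.09), H2AC25 (-0.35) and H1-2 (-0.6). At 24 h, H2BC21 and H1-10, near 0, turned with median centring (0.24 and 0.23). Other differences near 0 changed sign without single arrays. With the replicate block 6 histone probe sets were past the threshold at 24 h and 7, with the dimmer H2BC5 probe set, at 48 h.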
